A study of Saccharomyces cerevisiae with 4 samples.

Results

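The genes described here are the asparaginases and asparagine synthetases of *Saccharomyces cerevisiae*, 7 of the 6301 open reading frames (ORFs) listed in the deposited table. They were chosen by ORF name, with earlier results of these data known. The members are the asparaginase gene ASP1 (YDR321W), the 4 copies of the asparaginase gene ASP3, namely ASP3-1 (YLR155C), ASP3-2 (YLR157C), ASP3-3 (YLR158C) and ASP3-4 (YLR160C), and the asparagine synthetase genes ASN1 (YPR145W) and ASN2 (YGR124W). All 7 were well measured on at least 3 of the 4 arrays and entered the fit.

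Each array compared strain S288c under a pair of conditions. The nitrogen-rich condition was synthetic complete medium (SC), in which cells grew at 30 °C to mid log phase. In the nitrogen-poor condition, cells from SC were transferred for 12 h to a minimal medium that lacked amino acids and adenine and held only 0.025% ammonium sulfate. The media thus differed in amino acids, adenine, ammonium and time in culture, and these cannot be told apart in the ratio. Both cDNAs were primed with oligo-dT mixed with a multi-targeted primer (MTP). Such primers are degenerate oligonucleotides designed to match sites within many yeast mRNAs. The cDNAs were hybridized to spots of PCR-amplified ORFs. The dyes were reversed between 2 pairs of arrays. They are called here minimal in Cy5 and synthetic in Cy5, each with replicates 1 and 2, after the sample titles, although the channel descriptions assign the dyes the other way. Every value below is a log2 ratio with nitrogen-poor medium on top, so that a positive value means a higher level there. The replicates were separate reverse transcription reactions, no source states the number of cultures, and the p-values therefore measure the spread between arrays, which may be technical.

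Asparaginases split asparagine into aspartate and ammonium. *S. cerevisiae* is known for an intracellular asparaginase, encoded by ASP1, and an asparaginase of the cell wall and periplasm, encoded by ASP3, which lets cells that carry it use asparagine outside the cell as a nitrogen source. Asparagine synthetases run the opposite way. They build asparagine from aspartate with the amide nitrogen of glutamine and at the cost of ATP, and yeast has a pair of closely similar isozymes, Asn1 and Asn2. The ASP3 copies lie in a repeated stretch of chromosome XII beside the ribosomal DNA and are nearly identical, so that cDNA from any copy can bind the spots of all of them. They are read here as 1 signal.

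The ASP3 signal was higher in nitrogen-poor than in nitrogen-rich medium, and those of ASP1, ASN1 and ASN2 were lower. The mean of the ASP3 copies was 12.3-fold higher in nitrogen-poor medium. ASN2 was 4.73-fold lower, ASN1 3.34-fold lower and ASP1 2.26-fold lower. The asparaginase genes therefore moved in opposite directions, whereas the synthetase genes moved in the same direction. Of the 7 members, 4 passed as higher and 3 as lower at an adjusted p of 0.05 from limma. In all, 65.3% of the 5956 ORFs tested passed, 33.8% as higher and 31.5% as lower, so that a call by itself sets no gene apart, and the 4 calls for ASP3 count as 1. With the ASP3 copies averaged to 1 row, the same shares of 5953 ORFs passed. Each ratio is relative to the mean of the well measured spots on its array, so a change in total mRNA per cell would not show. Nor can a change in every cell be told from a change in part of the culture.

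**Figure D1:**
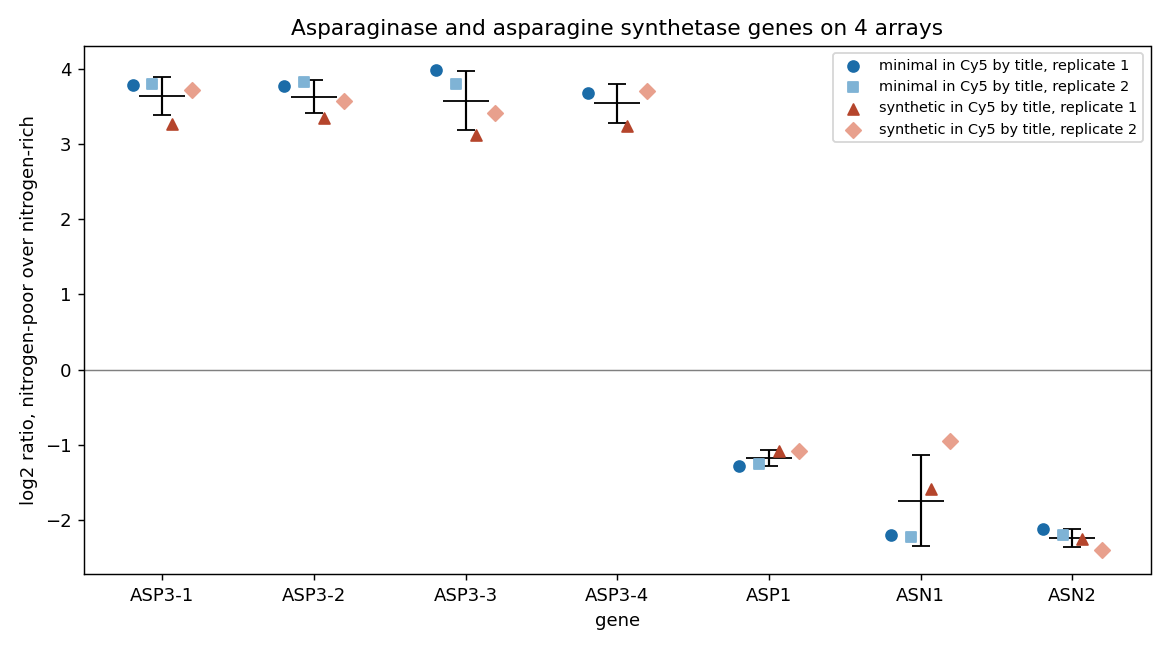
Log2 ratio, nitrogen-poor over nitrogen-rich (vertical axis) for each gene (horizontal axis) on each of 4 arrays (colored points), with the mean and SD (black bars). All values of the ASP3 copies lie between 3.12 and 3.99, and all values of ASP1, ASN1 and ASN2 lie below 0.

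The ASP3 spots gave 15 values over the 4 arrays. On the arrays with minimal medium in Cy5, ASP3-1 had log2 ratios of 3.79 and 3.80, and on those with synthetic medium in Cy5 3.27 and 3.72. In the same order, ASP3-2 had 3.77, 3.83, 3.35 and 3.58, and ASP3-3 had 3.99, 3.80, 3.12 and 3.41. ASP3-4 had 3.68 on the first array, no value on the second, and 3.24 and 3.71 on the arrays with synthetic medium in Cy5. For every copy, the lowest value came from replicate 1 with synthetic medium in Cy5. The median of that array over all ORFs was 0.06. The authors' scaling by the array mean holds medians near 0, so this cannot show whether strong ratios read low there.

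Averaged over the copies, the ASP3 signal was 3.80, 3.81, 3.25 and 3.61 on the 4 arrays, with a mean of 3.62 ± 0.26 (SD, n = 4 arrays). Its 95% confidence interval from limma ran from 3.37 to 3.86, which is 10.3- to 14.5-fold (adjusted p = 1.17e-06 from limma). Of the 5953 ORFs in that fit, 9 had a higher ratio. The single copies had means of 3.64 ± 0.25 (ASP3-1), 3.63 ± 0.22 (ASP3-2) and 3.58 ± 0.39 (ASP3-3) over 4 arrays and 3.54 ± 0.26 (ASP3-4) over 3 arrays (SD). On the 3 arrays that held all the copies, the means ran from 3.50 for ASP3-3 to 3.59 for ASP3-1, a span smaller than the SD of any copy over those arrays. Within arrays the order of the copies changed. ASP3-3 was the highest on replicate 1 with minimal medium in Cy5, at 3.99. It was the lowest on both arrays with synthetic medium in Cy5, at 3.12 and 3.41. Within 1 array, the SD over copies lay between 0.018 and 0.147. Within 1 copy, the SD over arrays lay between 0.216 and 0.391. Spots of the repeated gene thus resembled each other more on 1 array than any of them resembled itself across arrays. The mean ASP3 ratio was 3.81 with minimal medium in Cy5 and 3.43 with synthetic medium in Cy5. With a dye orientation term in limma the difference of 0.38 had an unadjusted p of 0.0349 and an adjusted p of 0.196 from limma, and the ASP3 mean was at least 9.48-fold higher on every array.

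ASP1, the gene of the intracellular asparaginase, had log2 ratios of -1.28 and -1.26 with minimal medium in Cy5 and of -1.08 and -1.09 with synthetic medium in Cy5. The arrays lay within 0.20 of each other and all were below 0. The mean was -1.17 ± 0.11 (SD, n = 4 arrays, 95% confidence interval -1.32 to -1.03, adjusted p = 9.81e-06 from limma). Of the ORFs tested, 212 had a lower ratio.

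The difference between the asparaginases was taken within each array. The ASP3 mean exceeded ASP1 by 5.08, 5.07, 4.32 and 4.69 on the log2 scale, on average by 4.79 ± 0.36 (SD, n = 4 arrays). That is a ratio of ratios of 27.7-fold, with the same direction on 4 of 4 arrays. An exact two-sided sign-flip permutation test gave p = 0.125 (0.25 after Benjamini-Hochberg adjustment over 2 pairs), and 0.125 is the smallest p that 4 arrays allow, so this test could not pass 0.05. The difference was many times the spread between arrays.

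ASN2 had log2 ratios of -2.12 and -2.20 with minimal medium in Cy5 and of -2.25 and -2.40 with synthetic medium in Cy5. The values lay close together. The mean was -2.24 ± 0.12 (SD, n = 4 arrays, 95% confidence interval -2.40 to -2.09, adjusted p = 1.15e-06 from limma), and 44 of the 5956 ORFs tested had a lower ratio.

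ASN1 was measured less evenly. It had -2.20 and -2.23 with minimal medium in Cy5, and -1.59 and -0.95 with synthetic medium in Cy5. All 4 arrays gave a lower signal in minimal than in synthetic medium, and the values were spread widely. The mean was -1.74 ± 0.61 (SD, n = 4 arrays, 95% confidence interval -2.24 to -1.24, adjusted p = 0.000415 from limma), and 96 ORFs had a lower ratio. The SD of ASN1 was larger than that of 99.2% of the 5231 ORFs with values on all 4 arrays, compared with 40.1% for ASN2 and 34.6% for ASP1. Among the ASP3 copies measured on all arrays, ASP3-3 stood at 96.2%, ASP3-1 at 84.4% and ASP3-2 at 77.7%. The mean was -2.21 in one orientation and -1.27 in the other, a difference of 0.95 that had an unadjusted p of 0.00500 and an adjusted p of 0.131 from limma with a dye orientation term. The orientations did not overlap for any of the 6 members with 4 values, among them ASP3 copies that count as 1 signal. Nor did they overlap for 56.8% of all ORFs with 4 values. That share is above what a random order of 2 against 2 arrays would give. Among the 6 members the difference in means was widest for ASN1. For the media contrast, 4369 ORFs passed with the orientation term and 3891 without it. The part of the dyes in this was not tested. Across all ORFs, 1 passed an adjusted p of 0.05 for the orientation term. With 2 arrays in each orientation the term had little power, so this count does not show that dye effects were absent. The ASN1 mean holds 2 arrays of each orientation, and with the orientation term it stayed at -1.74 (adjusted p = 5.60e-05 from limma).

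Set against each other within arrays, ASN1 minus ASN2 was -0.07 and -0.04 with minimal medium in Cy5 and 0.66 and 1.45 with synthetic medium in Cy5. The isozyme genes gave almost the same ratio in one orientation and differed in the other. The mean difference was 0.50 ± 0.72 (SD, n = 4 arrays), positive on 2 of 4 arrays. The exact two-sided sign-flip permutation p was 0.5, also after Benjamini-Hochberg adjustment over 2 pairs. As above, no p under 0.125 was possible, so that this test shows neither that the isozyme genes differed nor that they responded alike. As the genes are similar in sequence, their spots may share hybridization, and the part of this was not tested.

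**Figure D2:**
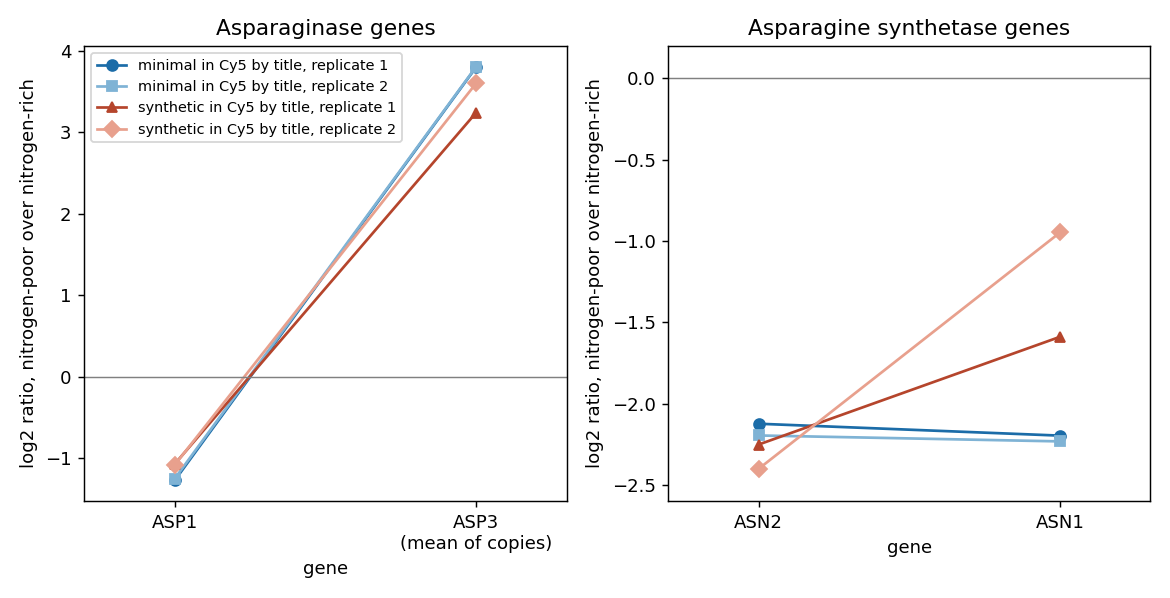
Log2 ratio, nitrogen-poor over nitrogen-rich (vertical axes) of the paired genes (horizontal axes), with 1 line for each array. On the left, all 4 lines rise from below 0 for ASP1 to above 3 for the ASP3 mean. On the right, the lines of the arrays with minimal medium in Cy5 are almost level and those with synthetic medium in Cy5 rise from ASN2 to ASN1, by 0.66 and 1.45.

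The table held 15 rows with ORF names from YLR152 to YLR164, the stretch of chromosome XII that contains the ASP3 copies. The files name no genome build, and the order of the genes was taken from the NCBI R64 gene table without its coordinates. YLR157C-A and YLR157C-B carried no value on any array. Of the 9 tested neighbors of the copies, 7 were higher in nitrogen-poor medium at an adjusted p of 0.05 from limma, compared with 33.8% of all ORFs tested, 1 was lower and 1 did not pass. YLR156W, YLR159W and YLR161W are near-identical ORFs of the same repeat, and with these counted as 1, 5 of 7 neighbors were higher. The window was set by ORF name, and the region as a whole was not tested. The highest neighbor, SHH4, lay 1.39 below the lowest ASP3 copy on the log2 scale.

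The uncharacterized ORFs YLR156W, YLR159W and YLR161W lie between or next to ASP3 copies on the opposite strand. YLR156W had log2 ratios of 0.75, 0.44, 0.31 and 0.36, with a mean of 0.46 ± 0.20 (SD, n = 4 arrays). YLR159W had 1.04, 0.64, 0.32 and 0.32, with a mean of 0.58 ± 0.34, and YLR161W had 1.09, 0.74, 0.62 and 0.62, with a mean of 0.77 ± 0.22 (SD, n = 4 arrays each). All of them were higher on every array, and all had their highest value on replicate 1 with minimal medium in Cy5. The call for YLR159W was lost when limma's moderation of the variance was left off (adjusted p = 0.0737 from limma). The next ORF, YLR162W, had 1.86, 1.03, 1.55 and 0.92, with a mean of 1.34 ± 0.44 (SD, n = 4 arrays). Its values split by replicate number.

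At the edges of the stretch the ratios ran in both directions. On one side, YLR152C was at -1.68 ± 0.11, the acetyl-CoA synthetase gene ACS2 (YLR153C) at 0.33 ± 0.15 (SD, n = 4 arrays each) and RNH203 (YLR154C), for a subunit of RNase H2, at 0.20 ± 0.07 (SD, n = 3 arrays), whose call was lost under 5 of 11 alternatives. On the other side, MAS1 (YLR163C), for a subunit of the mitochondrial processing protease, was at -0.13 ± 0.13 and did not pass. SHH4 (YLR164W), a homolog of a succinate dehydrogenase subunit, was at 2.16 ± 0.13 (SD, n = 4 arrays each).

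**Figure D3:**
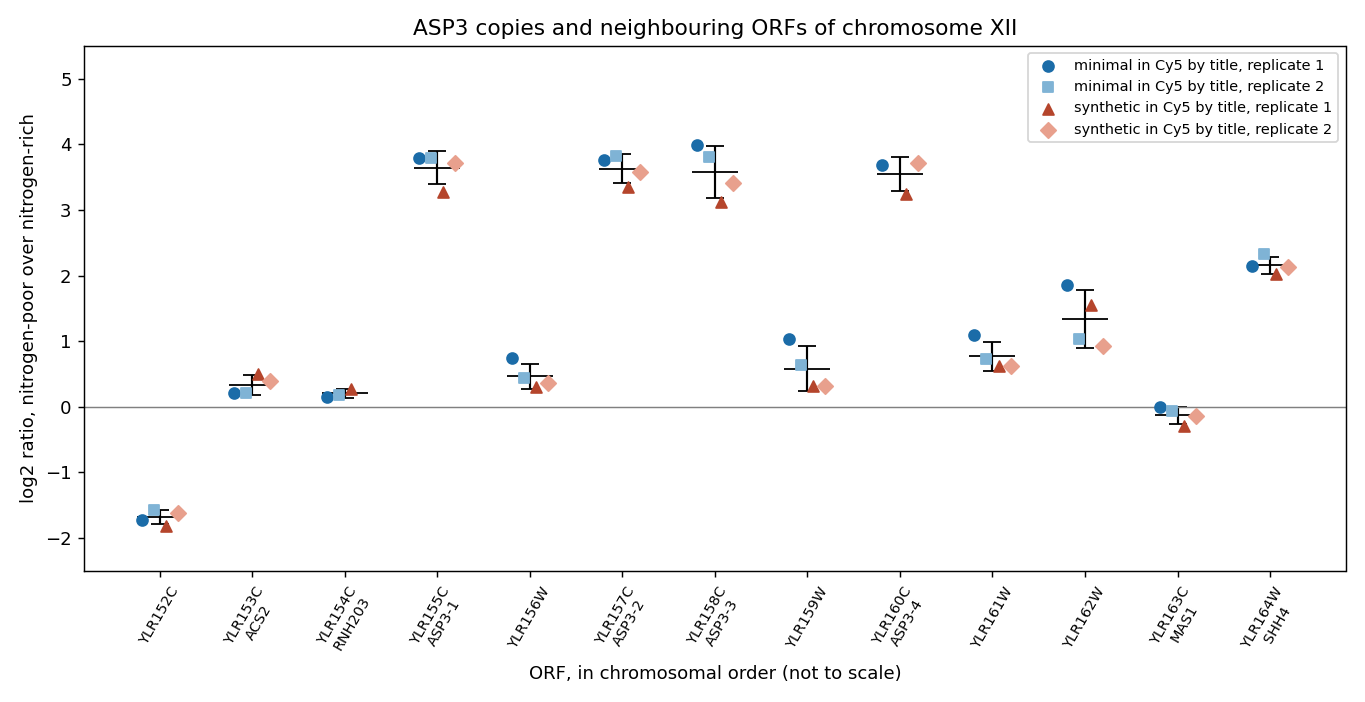
Log2 ratio, nitrogen-poor over nitrogen-rich (vertical axis) for the measured ORFs from YLR152C to YLR164W in chromosomal order (horizontal axis, distances not to scale), with each of 4 arrays as a colored point and the mean and SD as black bars. The ASP3 copies have means from 3.54 to 3.64, and the ORFs between them lie at 0.46 and 0.58.

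Genes around asparagine and aspartate were taken from a list of 13. Of these, 4 were higher and 6 lower at an adjusted p of 0.05 from limma, and 3 did not pass, compared with 33.8% higher and 31.5% lower over all ORFs tested, so that the share called was near the background. The median log2 ratio was -0.18, compared with 0.03 over all ORFs tested. The aspartate aminotransferase genes, whose enzymes form aspartate from oxaloacetate and glutamate, were higher, AAT1 (mitochondrial) at 1.09 and AAT2 (cytosolic) at 0.75. The glutamine synthetase gene GLN1, whose enzyme makes the nitrogen donor of Asn1 and Asn2, was at -0.95, -0.73, -1.05 and -1.01. DED81, for the cytosolic enzyme that charges tRNA with asparagine, was at -1.11, -1.14, -1.31 and -1.28, with a mean of -1.21 ± 0.10 (SD, n = 4 arrays). It was thus lower on every array, close to ASP1 in size. Its mitochondrial counterpart SLM5 was at -0.11 ± 0.22 (SD, n = 4 arrays) and did not pass. DPS1, which charges tRNA with aspartate in the cytosol, was slightly higher at 0.21 ± 0.03 (SD, n = 4 arrays). The genes for cytosolic charging of asparagine and of aspartate therefore moved apart. Of the genes whose enzymes consume aspartate, argininosuccinate synthase ARG1 was the lowest of the list at -3.52 and aspartate kinase HOM3 was at -1.94, whereas ADE12, for adenylosuccinate synthase, was at 0.22 ± 0.05 (SD, n = 4 arrays).

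Asn1 and Asn2 belong to the enzymes that take an amide nitrogen from glutamine. Of 16 other genes listed for such enzymes, 15 were tested, and 4 were higher, 7 lower and 4 did not pass, with a median of -0.18. The share called was again near the 65.3% of all ORFs tested. SNO1, for the glutaminase of vitamin B6 synthesis, was the lowest at -2.52 ± 0.26 (SD, n = 3 arrays). HIS7, of histidine synthesis, was at -2.41 ± 0.16 (SD, n = 3 arrays) and CPA1, of arginine synthesis, at -2.03 ± 0.11 (SD, n = 4 arrays). These were as low as ASN2 or nearly so. The CTP synthase genes moved apart, URA7 at -1.005 ± 0.08 and URA8, the highest of the list, at 0.75 ± 0.07 (SD, n = 4 arrays each). GMP synthase GUA1 at -0.03 ± 0.06 and glucosamine-6-phosphate synthase GFA1 at -0.0025 ± 0.11 (SD, n = 4 arrays each) did not pass. A lower ratio was thus not shared by the whole list.

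Among 4 genes for permeases that carry asparagine or aspartate, 3 were lower and 1 higher, compared with 31.5% lower and 33.8% higher over all ORFs tested. AGP1 and GNP1, for permeases of asparagine and glutamine, were at -3.29 ± 0.14 and -2.22 ± 0.14 (SD, n = 4 arrays each). DIP5, for the permease of glutamate and aspartate, was at -3.09 ± 0.13 (SD, n = 3 arrays). GAP1, the general amino acid permease, was higher at 0.46 ± 0.15 (SD, n = 4 arrays). Their median was -2.66.

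For comparison with the asparaginases, 11 genes of enzymes in the breakdown of other nitrogen compounds were listed. Of the 10 tested, 6 were higher, 3 were lower and 1 did not pass, with a median of 0.26. Over all ORFs tested, 33.8% were higher and 31.5% lower. DAL2, for allantoicase, was the highest at 1.12, 1.25, 1.03 and 1.16, and every ASP3 copy exceeded it by at least 2.09 on every array that measured both. CHA1, for the deaminase of serine and threonine, was the lowest at -2.11, -2.06, -1.99 and -1.90. ASP1 lay between these on every array. PUT1, for proline oxidase, had values on only 2 arrays, 2.11 and 1.52, and was not tested.

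**Figure D4:**
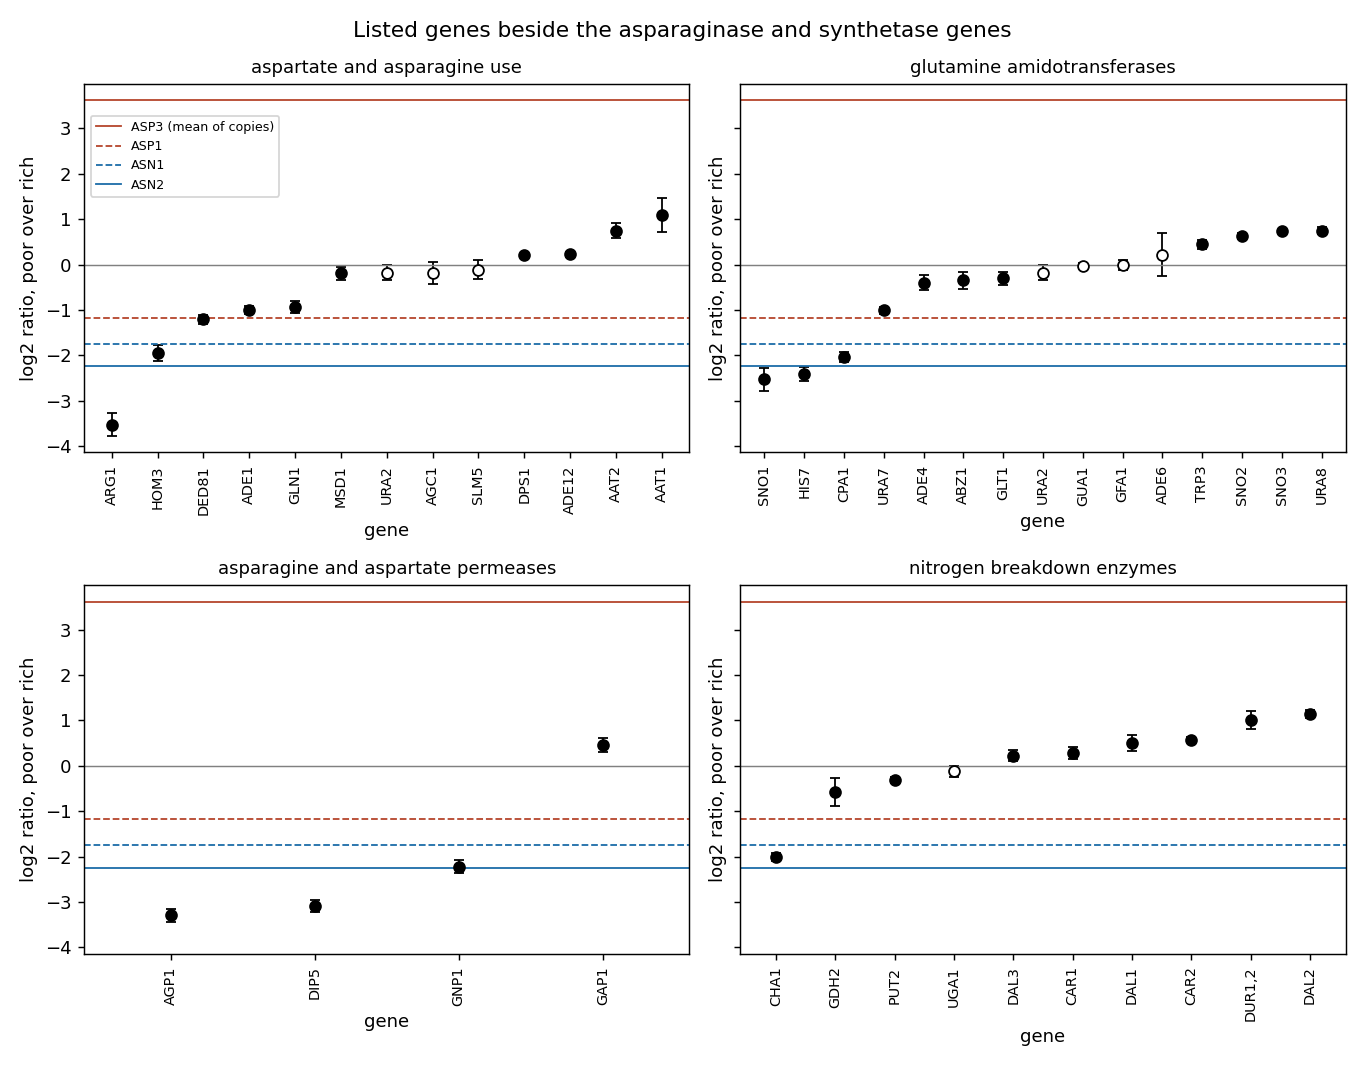
Mean log2 ratio, nitrogen-poor over nitrogen-rich (vertical axes) with the SD over arrays (bars) for the tested genes of each list (horizontal axes), filled where the adjusted p from limma was at most 0.05 and open otherwise. Horizontal lines mark the ASP3 mean at 3.62, ASP1 at -1.17, ASN1 at -1.74 and ASN2 at -2.24. No listed gene reaches the ASP3 line, and URA2 stands in both upper lists.

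Finally, the ORFs whose ratios lay nearest to those of the members were sought by the root mean square difference over the 4 arrays, among 5231 ORFs with values on all of them. As all arrays compare the same media, this finds ORFs of like ratio and nothing beyond. Nearest to the ASP3 mean lay SHH3 (YMR118C), a homolog of a succinate dehydrogenase subunit, RGI2 (YIL057C), of respiratory growth, and DAL5 (YJR152W), the allantoate permease, at differences of 0.30, 0.34 and 0.41. DAL5 had log2 ratios of 3.19, 3.50, 3.45 and 3.23. Nearest to ASN2 lay HIS1 (YER055C), of histidine synthesis, AMN1 (YBR158W) and PUS1 (YPL212C), at 0.08, 0.09 and 0.10. ASP1 lay nearest to VTS1 (YOR359W), MRM1 (YOR201C) and ERG7 (YHR072W), at 0.04, 0.06 and 0.06. Nearest to ASN1 was YDR509W, at 0.15, with log2 ratios of -2.26, -2.04, -1.56 and -1.17. These split by dye orientation as those of ASN1 did, which the choice by nearness to ASN1 favors. YOR302W, the leader peptide ORF of CPA1, and the tryptophan permease gene TAT2 (YOL020W) followed at 0.33 and 0.35.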

How the data were processed

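Log ratios from 4 two-color arrays were analysed. The authors scanned them on a GenePix instrument, subtracted the background, scaled by the mean of the well measured spots and deposited a log2 ratio per ORF and array. A spot that was not well measured has no value. Scanner intensities were not used here. Between 5548 and 5992 ORFs had a value on each array, and array medians lay between -0.03 and 0.11. The direction was taken from the study's table of levels in each medium, with which all 4 arrays correlated positively as nitrogen-poor over nitrogen-rich. The number of arrays limits the precision.

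ORFs measured on 3 or 4 arrays were fitted in R 4.3.3 with limma 3.58.1, with the mean as the single coefficient, and p-values were adjusted over all of them by Benjamini-Hochberg. The fit was tested on simulated data with independent normal noise for each ORF and array. These held no shift by array or dye, so the test does not bear on such effects. The ASP3 copies were also averaged to 1 row. Named genes were the members, the rows from YLR152 to YLR164, the extremes of each list and the direct pathway neighbors, and the 3 nearest ORFs to each member. Other list genes named were chosen after their values were seen. The members and lists were chosen with earlier results of these data known. The alternatives dropped single arrays, centered or scaled them, added a dye or replicate term, and changed the ORFs kept, the variance or the averaging of the copies. Gene names were matched through the NCBI R64 gene table. No sequences are shown, and the oligo-dT arrays and tag sequencing were not analysed here.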

Additional observations from a re-analysis of the deposited data

Results flagged for a closer look

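The 4 array values of 64 genes and differences were examined for a single array lying apart, which about 5% of such sets show by chance, and 4 sets did. For ASP3-1 (YLR155C) the gap to the nearest value was 0.860 of the whole range, and the array apart was replicate 1 with synthetic medium in Cy5, at 3.27 against 3.72 to 3.80 on the others. The same array stood apart for ARG1 (YOL058W), with 0.891, and for GLT1 (YDL171C), with 0.935. For PUS1 (YPL212C) the gap was 0.873 of the range, from replicate 2 with synthetic medium in Cy5, at -2.31 against -2.11 to -2.09.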

How the results depend on the processing

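ASP1, ASP3-1, ASP3-2, ASP3-3, ASN1 and ASN2 kept their direction and stayed under an adjusted p of 0.05 in all 12 alternatives. ASP3-4 did so in the 11 that could fit it, since it has no value on 1 array. The ASP3 mean did so in 14. The p-values were from limma, except that own variance used an ordinary t-test. Each member had the same sign on all its arrays, so leaving out an array could not reverse it. Several alternatives left the mean unchanged. ASN1 varied most, from -2.01 without replicate 2 with synthetic medium in Cy5 to -1.58 without replicate 2 with minimal medium in Cy5. Its largest adjusted p was 0.0262, from the ordinary t-test with its own variance. Leaving out single arrays gave 3.55 to 3.74 for the ASP3 mean, 4.69 to 4.95 for ASP3 minus ASP1 and 0.18 to 0.69 for ASN1 minus ASN2. The count of ORFs called ran from 3074 (own variance) to 4369 (dye orientation term).

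Across ORFs, replicate numbers showed little sign of pairing the arrays, which does not exclude it for single ORFs such as YLR162W. The deviations of same-numbered arrays from their orientation means correlated at r = 0.01 across 5231 ORFs, which are not independent replicates. With a replicate block, 3501 ORFs were called, the 7 members among them. Calls of some named genes with small ratios changed. MSD1 lost its call in 5 alternatives, DAL3 in 6 and RNH203 in 5, while ADE12, GLT1, ABZ1, GDH2 and YLR159W each lost it in 1. URA2 gained one in 3, ADE6 in 2 and AGC1 in 1. The cause was not tested.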
